A study of Mus musculus with 6 samples.

Results

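The genes described here shape mitochondria and remove damaged ones. They are 42 named genes of mitochondrial fusion and fission, cristae, mitophagy and autophagy, found by gene name in the authors' deposited table, which holds 51888 rows. All 42 had enough counts to be tested. RNA sequencing compared the hearts of 3 control with 3 Elac2 knockout mice, all on a C57BL/6 background. Elac2 encodes RNase Z, the enzyme that cuts the 3' trailer off immature tRNAs of nuclear and mitochondrial origin. The controls are named L/L in the titles and Elac2 +/+ in the genotype field, and the knockouts L/L, cre and Elac2 -/-. An exon of Elac2 flanked by loxP sites is cut out in the knockouts by cre under the promoter of muscle creatine kinase, so heart cells that do not use that promoter keep the gene. The labels name cre in the knockouts alone, so cre and the loss of Elac2 cannot be told apart. The age of the mice is not stated in the labels. The design text names 3 mice a group with technical replicates, and each mouse has 1 count column, so p-values measure the spread between these mice.

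Mitochondria of heart muscle fuse and divide continually. The mitofusins join outer membranes and OPA1 joins inner membranes, while the dynamin DRP1, encoded by Dnm1l, constricts and divides the organelle. Inside, the MICOS complex and the prohibitins hold the folds of the inner membrane, the cristae, in shape. Damaged mitochondria are marked by the kinase PINK1 or by receptors on their surface, wrapped in a membrane that carries lipid-linked ATG8 proteins (the LC3 and GABARAP families), and delivered to lysosomes, where cathepsins digest them. The transcription factors TFEB and TFE3 drive many lysosomal genes.

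The libraries held 9850100 to 14461110 counts. Mitochondrial-encoded features took 49.3% to 61.1% of counts in controls and 33.3% to 36.7% in knockouts. Levels are CPM, counts scaled to a TMM-adjusted library of fixed size, and fold changes are edgeR quasi-likelihood log2 fold changes of knockout over control, with a gene called where its Benjamini-Hochberg adjusted p over all tested genes was under 0.05. Elac2 itself was at 15.05, 14.0 and 13.01 CPM in controls and 5.36, 5.63 and 6.52 CPM in knockouts. Fold changes are relative to the bulk of tested genes, whose median log2 fold change was -0.01 with TMM and 0.68 with library size alone. Summed markers of cardiomyocytes were at 94930 to 96982 CPM in controls and 65654 to 67040 CPM in knockouts, with 4 of 10 lower, or 2 lower and 1 higher with library size alone. Ttn, not called, was at 54475 CPM in controls and 43850 CPM in knockouts, and Myh6, lower, at 19271 and 7712 CPM. These 2 genes weigh most in the sum, and 6 of the 10 markers were not called. Endothelial sums were 798 to 864 against 586 to 674 CPM, with 5 of 11 markers lower, or 2 to 7 when 1 library was left out, and 4 higher and 0 lower with library size alone. Smooth muscle and pericyte sums were 1239 to 1496 against 753 to 799 CPM, with 4 of 10 lower and 2 higher, or 2 and 3 with library size alone. The higher count was 1 without control 1, control 2, control 3 or knockout 2, and 3 without knockout 3. Fibroblast sums were 1204 to 1780 against 1771 to 3052 CPM, with overlapping ranges. Of 10 fibroblast markers 2 were higher, near the 18.7% of all tested genes, or 4 without knockout 1 or knockout 3 and 9 with library size alone. Among all tested genes 17.8% were lower and 18.7% higher, or 3.86% and 56.6% with library size alone. No marker of these lists was at 0. The part of these cell types in the results below was not tested, and in whole hearts fewer cells of a type and less RNA per cell cannot be told apart.

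Of the 42 genes, 10 were higher and 11 lower in the knockout hearts, and 21 were not called. Their median log2 fold change was 0.067, against -0.01 for all tested genes. Among all 14302 tested genes 18.7% were higher and 17.8% lower. The groups did not overlap for 14 of the 42 genes in the upward and 14 in the downward direction, against 26.2% and 24.5% of all tested genes, and 50.6% for both directions together. Called genes of a role did not always share a direction. The 3 fusion genes, the fission dynamin, Mtfp1, Pink1 and Ulk1 were lower, whereas the cargo receptor Sqstm1, the 3 GABARAP genes, Becn1 and the lysosomal genes Ctsd and Lamp1 were higher. With library size alone 25 of 42 were higher, near the 56.6% of all tested genes. There 1, Mtfp1, was lower, against 3.86% of all tested genes. The other falls among the 42 were not called there. That library size includes the mitochondrial-encoded counts, and a fall under any of these scalings is relative to other counts. With library size of nuclear genes alone 7 of the 42 were lower, while the median of all tested genes was 0.11. With TMM the lower genes also numbered 7 without control 1 or without control 2. The plot of log2 fold changes by role sets the scalings side by side.

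**Figure D1:**
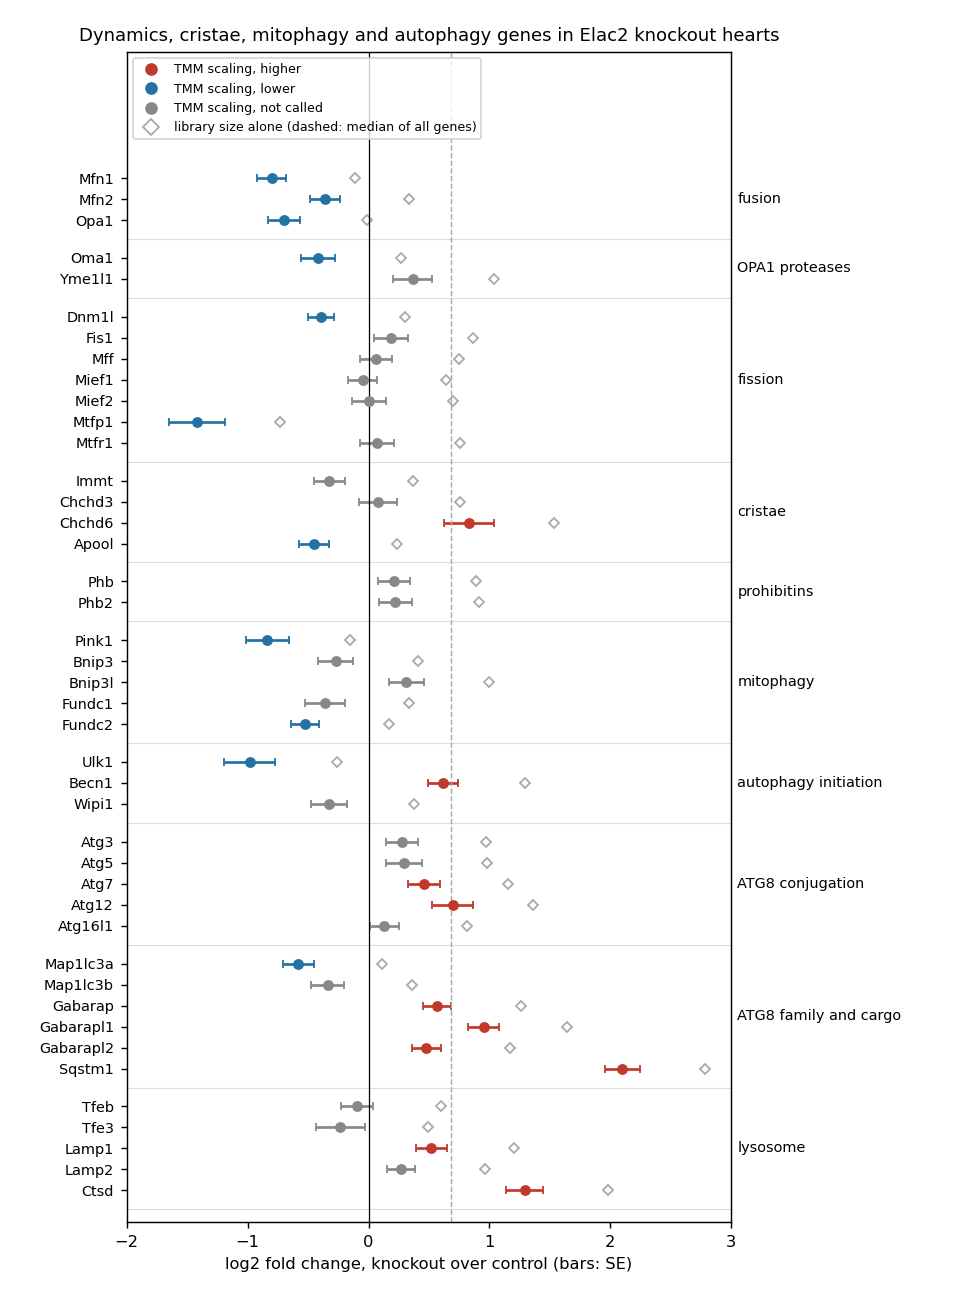
Log2 fold change of each of the 42 genes, knockout over control, grouped by role (horizontal axis, bars show SE). Filled points are the TMM-scaled fit, red for higher, blue for lower and grey for not called. Open diamonds are the same genes with library size alone, where the dashed line marks the 0.68 median of all tested genes. Sqstm1 stands farthest to the right at 2.10 and Mtfp1 farthest to the left at -1.42.

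The 3 fusion genes were all lower, although with library size alone Mfn1 and Opa1 were at -0.11 and -0.02, no longer called, and Mfn2 turned to 0.34. Mfn1 (ENSMUSG00000027668.13, chromosome 3, 32529465 to 32579239 in mm10), an outer membrane mitofusin, was at 227.6, 206.5 and 213.8 CPM in controls and at 111.0, 132.8 and 128.0 CPM in knockouts. The groups were far apart, and the fold change was -0.80 (SE 0.12, adjusted p = 8.68e-04). Opa1 (ENSMUSG00000038084.16, chromosome 16, 29579334 to 29654884), the inner membrane fusion dynamin, was at 199.97, 192.8 and 165.1 CPM in controls. Its knockout values were 100.8, 119.8 and 122.9 CPM, a change of -0.70 (SE 0.13, adjusted p = 2.82e-03). Mfn2, which also tethers mitochondria to the endoplasmic reticulum, fell from 470.7 ± 24.6 to 366.2 ± 7.34 CPM (SD, n = 3 each). Its change was -0.36 (SE 0.12, adjusted p = 0.0422). It was no longer called without control 1, control 2, control 3, knockout 2 or knockout 3, or without a filter. Nor was it called with the replicate number as a block, or with library size of nuclear genes alone (-0.24).

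The count ratio of Mfn2 to Mfn1 within a library does not depend on scaling between libraries. Its geometric mean was 2.18 in controls and 2.96 in knockouts. The log2 ratios were 1.004, 1.14 and 1.22 in controls and 1.74, 1.43 and 1.53 in knockouts, without overlap. A two-sided exact permutation test gave p = 0.1, the lowest value possible with 3 mice in each group, or 0.143 when adjusted over the 10 ratios compared. Mfn2 was the more abundant mitofusin per exon length in either group, at 90.6 against 35.3 CPM per exon kb in controls and 70.5 against 20.3 in knockouts. Exon lengths here join all annotated transcripts, so levels of genes with long annotated variants are understated.

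Of the proteases that cut OPA1, Oma1 was lower and Yme1l1 was not called. Oma1, which is activated by stress and also cuts the stress messenger DELE1, was at 17.8, 18.2 and 14.9 CPM in controls and 12.5, 13.8 and 11.7 CPM in knockouts. Its change of -0.42 (SE 0.14, adjusted p = 0.0394) turned to 0.27 with library size alone. It was not called without control 1, control 2, knockout 2 or knockout 3, with DESeq2 or without a filter. The authors' deposited table did not call it either (adjusted p = 0.130), nor did a fit with the replicate number as a block. With library size of nuclear genes alone it was at -0.30 and not called. Yme1l1, the housekeeping protease, was at 95.5, 82.7 and 65.9 CPM in controls and 88.9, 109.7 and 115.9 CPM in knockouts. The groups overlapped, and its value of 0.36 did not pass the test (SE 0.16, adjusted p = 0.10). The log2 ratio of Oma1 to Yme1l1 was -2.25 ± 0.15 for controls and -3.04 ± 0.25 (SD, n = 3 each) for knockouts. These groups did not overlap (exact permutation p = 0.1, the lowest possible, adjusted p = 0.143). With 3 mice in each group no ratio could pass.

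Of the 7 fission genes, 2 fell and 5 were not called, their median being 0.0038. Mtfp1 (ENSMUSG00000004748.5, chromosome 11, 4091480 to 4095445), an inner membrane protein that promotes fission, had the largest fall of the 42 genes. It was at 49.2, 45.3 and 42.9 CPM in controls and 10.5, 22.6 and 18.5 CPM in knockouts, a change of -1.42 (SE 0.23, adjusted p = 1.28e-03). Knockout 1 was the lowest, and the fall was still -0.73 with library size alone, called there too. Dnm1l (chromosome 16, 16312230 to 16358959) was at 104.6, 106.5 and 99.1 CPM in controls and 78.8, 83.6 and 73.9 CPM in knockouts. Its change of -0.39 (SE 0.11, adjusted p = 0.0192) turned to 0.30 with library size alone. It was not called without control 1, control 2 or knockout 3, or without a filter. Nor was it called with the replicate number as a block, or with library size of nuclear genes alone (-0.27). The anchors that bring DRP1 to the outer membrane gave values of 0.18 for Fis1, 0.063 for Mff, -0.05 for Mief1 and 0.0038 for Mief2, with overlapping groups. Mtfr1, a regulator of fission, was at 0.071. The ratio of Mief2 to Mief1 overlapped between groups as well (exact permutation p = 0.8).

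Cristae genes had 1 member higher, 1 lower and 2 not called. Apool, a lipid-binding MICOS subunit, was at 25.6, 24.9 and 21.3 CPM in controls and 17.1, 17.7 and 17.7 CPM in knockouts. This change of -0.45 (SE 0.12, adjusted p = 0.0161) turned to 0.23 with library size alone. It was not called without control 1, control 2 or knockout 2, nor in the authors' deposited table (adjusted p = 0.0565). With library size of nuclear genes alone it was at -0.33 and not called. Immt, the core MICOS subunit, ranged from 288.1 to 303.8 CPM in controls and from 206.0 to 258.1 CPM in knockouts. Its groups did not overlap, yet its value of -0.32 did not pass (SE 0.13, adjusted p = 0.0746). Chchd6, a MICOS subunit of low level, rose from 2.86, 3.22 and 3.95 CPM to 4.99, 6.10 and 6.68 CPM (change 0.83, SE 0.21, adjusted p = 0.0123). Its paralog Chchd3 stood at 191.8 ± 22.6 and 202.9 ± 36.2 CPM (SD, n = 3 each), with overlapping groups. Per exon length Chchd3 remained far above Chchd6, at 69.9 against 2.34 CPM per exon kb in knockouts. The prohibitins Phb and Phb2 were at 0.21 and 0.22, not called, with overlapping groups. The pseudogene Gm7666 is nearly identical to Phb and held 10.25 counts per 100 of Phb.

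Mitophagy genes had 2 lower members, Pink1 and Fundc2, and 3 not called. Pink1 (ENSMUSG00000028756.12, chromosome 4, 138313409 to 138326307) was at 231.8, 235.8 and 185.0 CPM in controls and 92.8, 125.6 and 147.4 CPM in knockouts. Its change was -0.84 (SE 0.18, adjusted p = 5.30e-03), or -0.15 and not called with library size alone. Fundc2, a paralog of the mitophagy receptor gene Fundc1, was at 55.7, 57.2 and 49.7 CPM in controls and 34.0, 40.3 and 38.8 CPM in knockouts. That change of -0.53 (SE 0.12, adjusted p = 6.23e-03) turned to 0.17 with library size alone. Fundc1 had values of 14.6 to 14.8 CPM in controls and 8.81 to 12.9 CPM in knockouts, and -0.36 did not pass the test (adjusted p = 0.115).

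The hypoxia-linked receptor genes Bnip3 and Bnip3l had values of -0.27 and 0.31, and neither was called. The count ratio of Bnip3l to Bnip3 was 0.587 in controls and 0.873 in knockouts, with log2 ratios of -0.86, -0.73 and -0.71 against -0.47, -0.09 and -0.03 (exact permutation p = 0.1, adjusted p = 0.143). Reticulocytes also use Bnip3l. Summed erythroid markers were at 522 to 1795 CPM in controls and 1440 to 2942 CPM in knockouts, with 1 of 7 called higher, or 0 to 2 without 1 library and 7 with library size alone, and none at 0. Among all tested genes 18.7% were higher, or 56.6% with library size alone. The part of erythroid cells in this ratio was not tested. A pseudogene, Bnip3l-ps, shares 657 bases with Bnip3l at 99.4% identity and held 6.00 counts per 100 counts of Bnip3l, so some reads could belong to either.

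**Figure D2:**
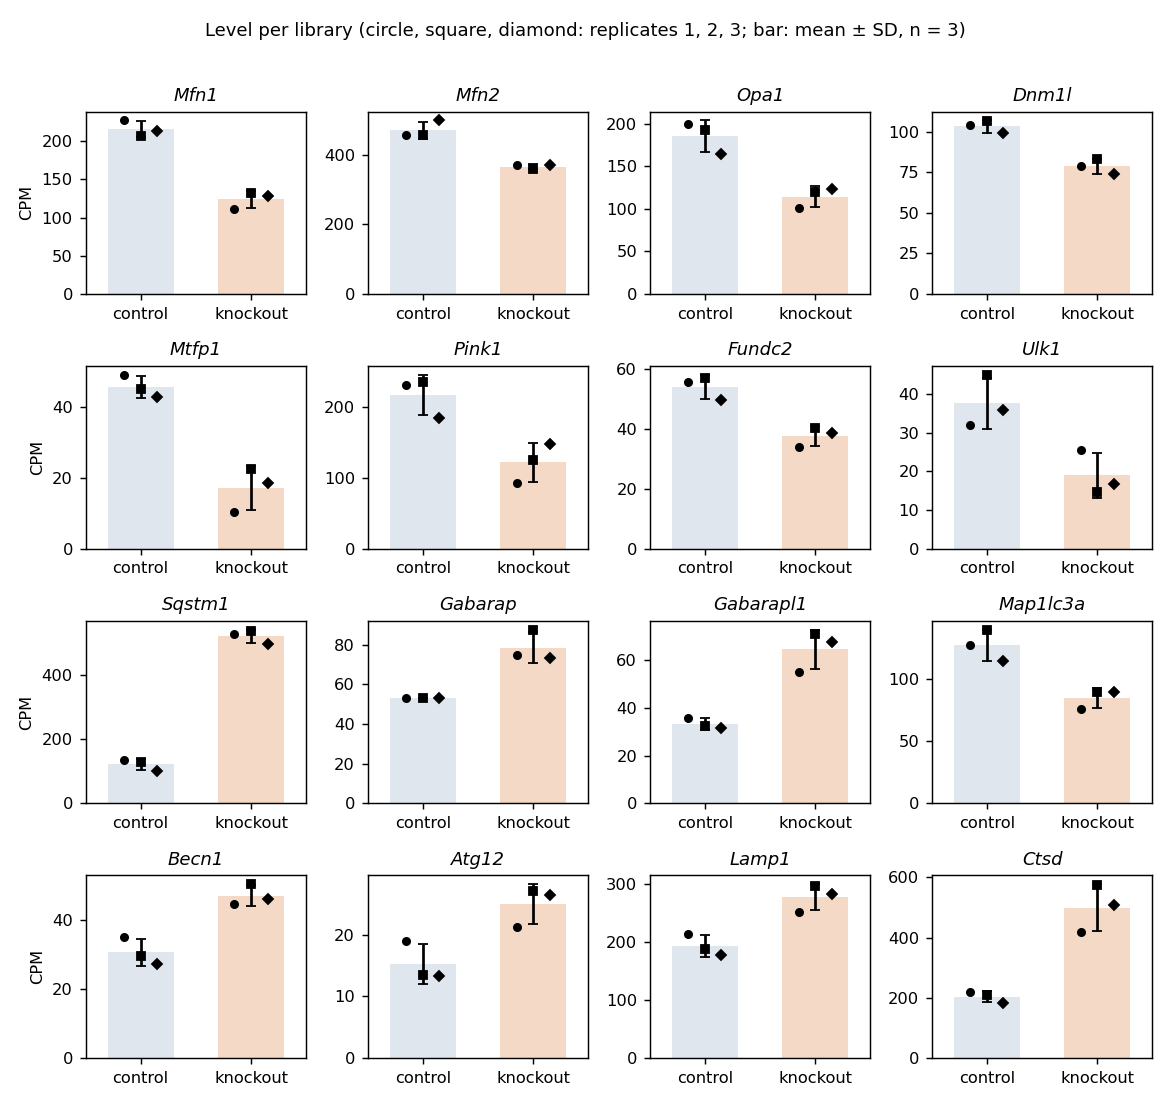
CPM (vertical axis, from 0) of 16 of the genes in each control and knockout library. Bars are means with SD (n = 3 each), and circles, squares and diamonds are replicates 1, 2 and 3, which are different mice in the control and knockout groups. Sqstm1 sits at 496.9 to 537.3 CPM in knockouts against 102.0 to 134.6 CPM in controls, and Mtfp1 at 10.5 to 22.6 against 42.9 to 49.2 CPM.

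The genes that start autophagy went both ways. Ulk1 (ENSMUSG00000029512.11, chromosome 5, 110784488 to 110810097), the kinase that receives signals from mTORC1 and AMPK, was at 32.0, 44.9 and 35.9 CPM in controls and 25.6, 14.5 and 16.7 CPM in knockouts. It fell by 0.98 (SE 0.21, adjusted p = 5.49e-03), or by 0.26 and uncalled with library size alone. Here knockout 1 was the highest knockout, the reverse of most of the other genes. Becn1, a subunit of the class III lipid kinase complex, rose from 34.9, 29.6 and 27.2 CPM to 44.5, 50.3 and 46.0 CPM (change 0.61, SE 0.12, adjusted p = 4.02e-03). Of the annotated exon length of Becn1, 43.9% lies across from exons of Cntd1 on the other strand, which held 18 counts in all libraries together. No label says whether strand was used in counting. Wipi1, a phosphoinositide-binding protein of the forming membrane, had overlapping groups and a value of -0.33.

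The enzymes that attach ATG8 proteins to lipid had positive values for all 5 genes under each scaling. With library size alone the median of all tested genes was 0.68, so positive values are common there. With TMM 2 of the 5 were called higher, against 18.7% of all tested genes. Atg12, the ubiquitin-like partner of ATG5, rose from 19.0, 13.4 and 13.4 CPM to 21.2, 27.1 and 26.5 CPM (change 0.69, SE 0.17, adjusted p = 0.0106). Atg7, which activates ATG12 and the ATG8 proteins, was at 8.28, 8.33 and 8.83 CPM in controls and 11.4, 11.5 and 11.997 CPM in knockouts. These values lay close together within groups, and the change was 0.46 (SE 0.13, adjusted p = 0.0234). This call was not made without control 1, control 2, knockout 2 or knockout 3, with DESeq2, or with the replicate number as a block. It was not made in the authors' deposited table either (adjusted p = 0.0696). The values for Atg3, Atg5 and Atg16l1 were 0.28, 0.30 and 0.13 and did not pass. For Atg3 and Atg5 the groups did not overlap.

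The GABARAP genes of the ATG8 family rose for 3 of 3 members. Gabarapl1 (ENSMUSG00000030161.8, chromosome 6, 129533160 to 129542346) was at 36.0, 32.3 and 31.6 CPM in controls and 55.1, 71.0 and 67.6 CPM in knockouts (change 0.95, SE 0.13, adjusted p = 4.47e-04). On the other strand 1700101I11Rik covers 28.3% of its exon length and held 25 counts in all libraries together. Gabarap (chromosome 11, 69991143 to 69994951) rose from 53.1, 53.1 and 52.9 CPM to 74.9, 87.6 and 73.1 CPM (change 0.57, SE 0.11, adjusted p = 3.87e-03). Gabarapl2 rose by 0.48 (SE 0.12, adjusted p = 0.0121), a call not made without knockout 2. In each of the 3 genes every knockout library was above every control library.

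The LC3 genes gave negative values under TMM. Map1lc3a (ENSMUSG00000027602.9, chromosome 2, 155276297 to 155278073) was at 126.7, 139.2 and 114.3 CPM in controls and 75.4, 89.4 and 89.2 CPM in knockouts. That change of -0.58 (SE 0.13, adjusted p = 5.97e-03) turned to 0.11 with library size alone. Map1lc3b ranged from 67.5 to 81.9 CPM in controls and from 49.2 to 65.4 CPM in knockouts, and -0.34 did not pass (adjusted p = 0.0779). The pseudogene Gm6055 shares 378 bases with Map1lc3b at 99.7% identity and held 8.84 counts per 100 of Map1lc3b, so some reads could belong to either. How far this touches the level of Map1lc3b was not measured.

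Shares within the family do not depend on scaling between libraries, and they were compared after the values of the single genes had been seen. The 3 GABARAP genes made up 31.6%, 29.0% and 32.8% of the summed ATG8 level per exon kb in controls and 52.6%, 52.9% and 49.6% in knockouts. The mean share was 31.2 ± 1.95% against 51.7 ± 1.82% (SD, n = 3 each), with an exact permutation p of 0.1, the smallest possible. Map1lc3a made up 63.0 ± 1.78% of the sum in controls and 43.5 ± 1.43% in knockouts, and Gabarapl1 9.75 ± 0.815% and 19.4 ± 0.886%. These shares depend on the exon lengths used, such as 1181 bases for Map1lc3a and 7517 for Map1lc3b. The sum of all 5 was 170.0 ± 12.04 CPM per exon kb in controls and 164.6 ± 14.9 in knockouts, with overlapping groups (exact permutation p = 0.6). Unlike the shares, this sum depends on the scaling. The values of all 5 genes were positive with library size alone, at 0.11 for Map1lc3a, 0.36 for Map1lc3b, 1.26 for Gabarap, 1.64 for Gabarapl1 and 1.17 for Gabarapl2. Within each subfamily the ratio of Gabarapl1 to Gabarap was 0.627 in controls and 0.820 in knockouts, and that of Map1lc3b to Map1lc3a 0.585 and 0.691. The libraries did not overlap for either ratio (exact permutation p = 0.1 each, adjusted p = 0.143), and with 3 mice in each group neither could pass.

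**Figure D3:**
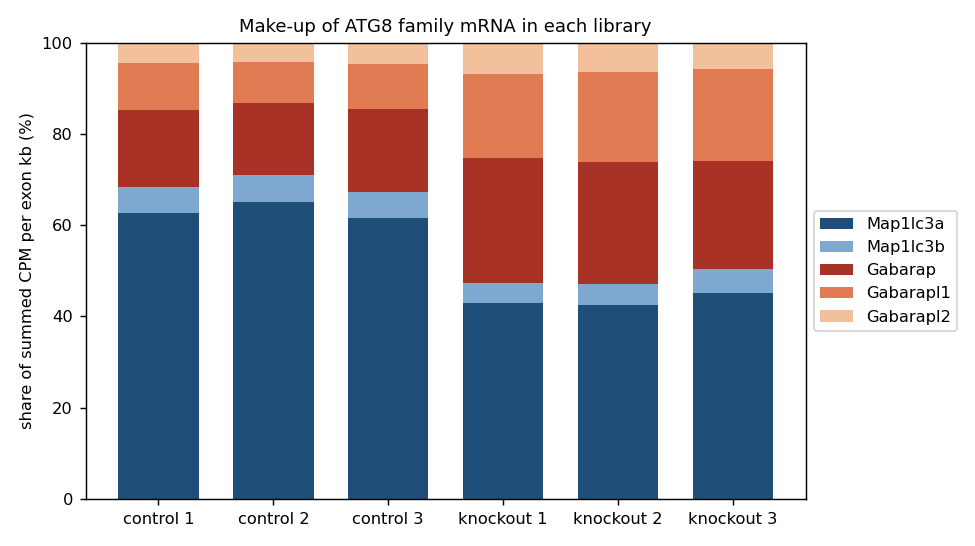
Share of each ATG8 family gene in the summed CPM per exon kb of the 5 genes (vertical axis, %) in each control and knockout library. Blue parts are the LC3 genes and red to orange parts the GABARAP genes, which took 29.0% to 32.8% in controls and 49.6% to 52.9% in knockouts.

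Sqstm1 (ENSMUSG00000015837.15, chromosome 11, 50199366 to 50210827) encodes p62, the receptor that ties ubiquitin-tagged cargo to ATG8 proteins, and rose the most of the 42 genes. It was at 134.6, 127.5 and 102.0 CPM in controls and 527.3, 537.3 and 496.9 CPM in knockouts. The groups were widely separated, at 121.3 ± 17.1 and 520.5 ± 21.0 CPM (SD, n = 3 each). This was a change of 2.10 (SE 0.15, adjusted p = 1.25e-05), or 4.29-fold. The overlapping gene on the other strand, Mrnip, covers 17.3% of the exon length and held 122 counts in all libraries, against 29175 for Sqstm1. Per exon length Sqstm1 went from 36.2 to 155 CPM per exon kb, above Map1lc3a in knockouts (71.7) and below it in controls (107).

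Of the 5 lysosomal genes 2, Ctsd and Lamp1, were higher, against 18.7% of all tested genes. With library size alone these 2 and Lamp2 (0.96) were called higher, as were 56.6% of all tested genes. Ctsd (ENSMUSG00000007891.16, chromosome 7, 142375911 to 142388038), the lysosomal protease cathepsin D, was at 218.9, 209.6 and 182.4 CPM in controls and 416.8, 573.1 and 506.7 CPM in knockouts. Its change was 1.29 (SE 0.15, adjusted p = 2.37e-04), or 2.45-fold. Gm49369, annotated on the same strand, overlaps 34.4% of the exon length of Ctsd and held 0 counts in all libraries together. Lamp1 (ENSMUSG00000031447.7, chromosome 8, 13159161 to 13175338), a coat protein of the lysosomal membrane, rose from 214.6, 189.0 and 177.0 CPM to 252.4, 296.6 and 283.4 CPM. The change of 0.52 (SE 0.13, adjusted p = 0.0114) was not called without control 2 or knockout 2. Lamp2, its paralog, was at 130.4 to 135.2 CPM in controls and 144.1 to 170.7 CPM in knockouts, and 0.27 did not pass (adjusted p = 0.0999). The count ratio of Lamp2 to Lamp1 was 0.690 in controls and 0.577 in knockouts, with no overlap (exact permutation p = 0.1, adjusted p = 0.143).

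Macrophages are rich in lysosomes. Their summed markers were at 238 to 257 CPM in controls and 247 to 290 CPM in knockouts, with overlapping ranges. Of 11 macrophage and leukocyte markers 1 was higher and 0 lower, or 1 lower without knockout 3 and 9 higher with library size alone, and none was at 0. Among all tested genes 18.7% were higher and 17.8% lower, or 56.6% and 3.86% with library size alone. The part of macrophages and leukocytes in the values of Ctsd and Lamp1 was not tested.

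The transcripts of Tfeb and Tfe3 themselves did not pass the test. Tfeb was at 14.7, 16.2 and 13.6 CPM in controls and 12.7, 14.3 and 14.7 CPM in knockouts (-0.10, SE 0.13, adjusted p = 0.607). Tfe3 was at 7.82, 13.6 and 11.0 CPM and 10.1, 8.88 and 8.29 CPM (-0.23, SE 0.20, adjusted p = 0.397). For both the groups overlapped, and their ratio did too (exact permutation p = 0.8).

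TFEB and TFE3 bind the CLEAR element, which is built around the E-box CACGTG. The RefSeq promoter windows of GRCm38.p6, from 250 bases before to 50 after a start, were searched for it. The table held 44 windows for 36 of the 42 genes. The E-box, which reads the same on both strands, was in windows of 9 genes, 3 of the 8 higher genes with a window (Ctsd, Lamp1 and Atg7), 0 of 10 lower and 6 of 18 not called. Counted by window, 9 of the 44 held it, against 7.15% of all 32851 windows. The longer TCACGTGA, which contains the E-box, was in 2 of the 44 windows, for Ctsd and for Atg3, and in 0.97% of all windows. The ATF4 element TGATGNAA, on either strand, was in no window of these genes and in 3.97% of all windows. The antioxidant element TGACNNNGC, on either strand, was in 3 of the 44 windows, for Ctsd, Map1lc3b and Fundc2, and in 12.4% of all windows. A match is a stretch of letters and was not tested as a binding site.

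The 250 bases before the RefSeq start are shown for Ctsd and Lamp1, the called lysosomal genes, and for Atg3, which has the same letters but was not called. Capitals mark the E-box. They lie at chr7:142387828-142388077 on the minus strand, chr8:13158911-13159160 on the plus strand and chr16:45158579-45158828 on the plus strand, in GRCm38.p6. The gene positions given above are from GENCODE, whose starts can differ. Most of the Ctsd window and the end of the Atg3 window lie inside the GENCODE gene, the Atg7 window lies far inside it, and the Lamp1 starts are the same.
Ctsd: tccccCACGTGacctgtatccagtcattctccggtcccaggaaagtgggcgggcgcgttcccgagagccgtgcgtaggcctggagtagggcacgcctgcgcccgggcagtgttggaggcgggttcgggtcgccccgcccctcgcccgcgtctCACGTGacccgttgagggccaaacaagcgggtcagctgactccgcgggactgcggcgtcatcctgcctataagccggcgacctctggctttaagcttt
Lamp1: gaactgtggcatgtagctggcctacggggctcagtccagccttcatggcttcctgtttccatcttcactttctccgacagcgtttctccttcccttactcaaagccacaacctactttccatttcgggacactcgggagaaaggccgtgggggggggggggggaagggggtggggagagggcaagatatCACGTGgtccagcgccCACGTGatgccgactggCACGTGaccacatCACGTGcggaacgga
Atg3: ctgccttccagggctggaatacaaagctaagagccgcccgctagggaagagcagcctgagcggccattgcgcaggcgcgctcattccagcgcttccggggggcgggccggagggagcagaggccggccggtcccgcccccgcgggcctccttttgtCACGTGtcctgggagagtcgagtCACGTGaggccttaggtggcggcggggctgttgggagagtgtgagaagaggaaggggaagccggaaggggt
The Lamp1 window holds 4 E-boxes within its last 61 bases, while those of Ctsd and Atg3 hold 2 each. The fold changes beside these windows were 1.29 for Ctsd, 0.52 for Lamp1 and 0.28 for Atg3.

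**Figure D4:**
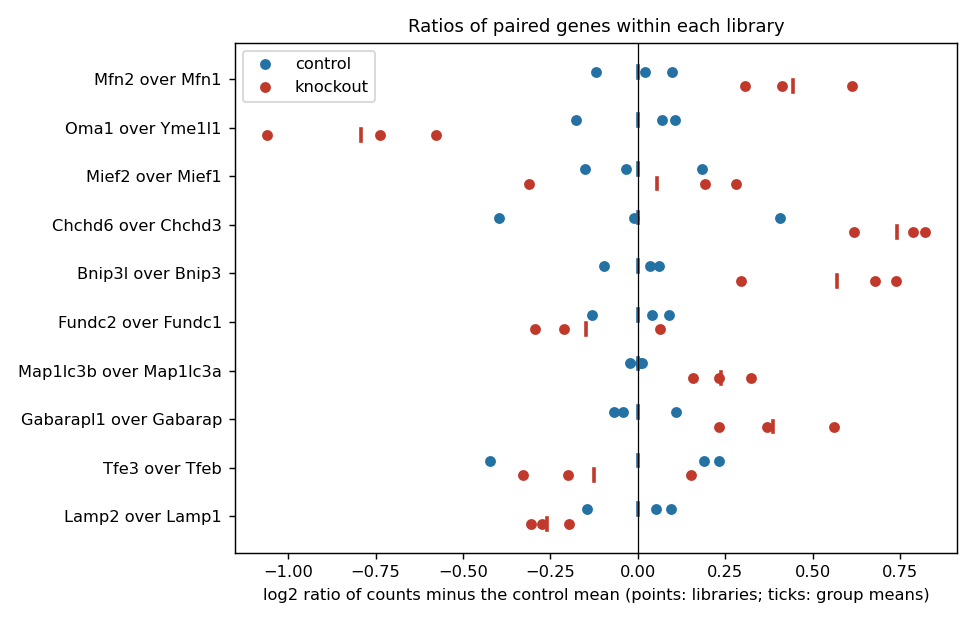
Log2 ratio of counts of 2 related genes within each library, minus the control mean of that ratio (horizontal axis). Blue points are control and red points knockout libraries, and ticks are group means. The groups do not overlap for 7 of the 10 ratios, and overlap for Mief2 over Mief1, Fundc2 over Fundc1 and Tfe3 over Tfeb.

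Libraries of a group differed in the same direction over many of the 42 genes. Control 3 was the lowest control for 33 of them, or 78.6%, against 36.5% of all tested genes. Knockout 1 was the lowest knockout for 30, or 71.4%, against 42.7% of all tested genes. Without control 3 the genes numbered 10 higher and 10 lower, and without knockout 1 they numbered 14 higher and 12 lower. Yme1l1, Phb2, Bnip3l and Lamp2 were then called higher and Wipi1 lower.

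Other genes of the same pathways were drawn from lists. Among 25 tested genes of dynamics and cristae outside the 42, 7 were higher and 9 lower with a median of -0.22, or 4 higher without control 2 and 5 lower without control 3. Rhot2, a motor adaptor that carries mitochondria along microtubules, fell from 32.3 to 13.2 CPM (-1.29, adjusted p = 1.57e-04, and -0.58 with library size alone). Micos10, a MICOS subunit, was at -0.78, or -0.07 and uncalled with library size alone. Tmem11, an inner membrane protein of cristae, was higher at 1.02. With library size alone the list had 13 higher and 1 lower. Among all tested genes 18.7% were higher and 17.8% lower, or 56.6% and 3.86% with library size alone.

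In the remaining mitophagy list, 10 of 21 genes were higher, or 6 without control 2 or knockout 2, and 2 lower, or 1 without control 1, control 3, knockout 2 or knockout 3. With library size alone 19 were higher and 0 lower. The shares of all tested genes were 18.7% higher and 17.8% lower, or 56.6% and 3.86% with library size alone. The hypoxia factor Hif1a rose from 93.6 to 197 CPM (1.07, adjusted p = 1.74e-04). Park7, a redox-sensing protein, and Marchf5, a ubiquitin ligase of the outer membrane, were higher at 0.78 and 0.61. Among 31 tested core autophagy genes, 5 were higher and 5 lower, with a median of 0.096, or 23 and 0 with library size alone. The higher count was 10 without knockout 1. The lower count was 3 without control 1, 1 without control 2, 0 without control 3 or knockout 2 and 2 without knockout 3. Rubcn, an inhibitor of the BECN1 complex, rose by 0.89, Vmp1, a lipid scramblase of the endoplasmic reticulum, by 0.83, and Snap29, which fuses autophagosomes with lysosomes, by 0.61. The 5 of 31 higher genes are a share near the 18.7% of all tested genes.

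Of 41 further lysosomal genes 13 were higher and 5 lower, with a median of -0.01, or 31 and 1 with library size alone. The higher count was 9 to 12 when 1 library was left out. The lower count was 3 without control 1 or control 3 and 2 without control 2 or knockout 2. Of all tested genes 18.7% were higher and 17.8% lower, or 56.6% and 3.86% with library size alone. Atp6v1h, a subunit of the proton pump that acidifies lysosomes, rose from 22.3 to 69.8 CPM (1.64, adjusted p = 1.72e-05). The cathepsin genes Ctsl and Ctsz rose by 1.505 and 1.01.

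Among 29 regulators of TFEB and ULK1, 5 were higher and 8 lower, with a median of -0.11, or 16 and 0 with library size alone. The higher count was 2 without control 3 or knockout 2 and 3 without control 1, control 2 or knockout 3. The lower count was 4 without control 3 and 5 without control 2 or knockout 2. The 5 of 29 higher genes are a share near the 18.7% of all tested genes, of which 17.8% were lower. With library size alone these shares of all tested genes were 56.6% and 3.86%. Akt1s1, an inhibitory subunit of mTORC1, was higher at 0.84. Prkaa2, the catalytic AMPK subunit of muscle, and Foxo3, a factor that drives autophagy genes in muscle, were lower at -0.65 and -0.70, values that came to 0.051 and 0.0022 with library size alone.

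A list held the relay from OMA1 through DELE1 to ATF4 and genes that respond to ATF4. Of its 10 genes 7 were higher and 1 lower, or 9 and 0 with library size alone. Among all tested genes 18.7% were higher and 17.8% lower, or 56.6% and 3.86% with library size alone. The higher genes of the list were the factors Atf4, Atf5 and Ddit3, the translation factor gene Eif2s1, and Trib3, Chac1 and Sesn2. Atf4 rose from 34.6 to 251 CPM (2.85), Sesn2 by 3.27 and Trib3 by 6.08. The lower gene, chosen after its value was seen, was Dele1 at -0.81, or -0.12 and uncalled with library size alone. Eif2ak1, the kinase that DELE1 activates, was at 0.084 and not called (adjusted p = 0.613), and Oma1, at the head of the relay, was at -0.42. Ddit4 was at 0.033 and not called (adjusted p = 0.938), with overlapping groups. All genes of the list but those named by the smallest adjusted p were named after their values were seen.

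**Figure D5:**
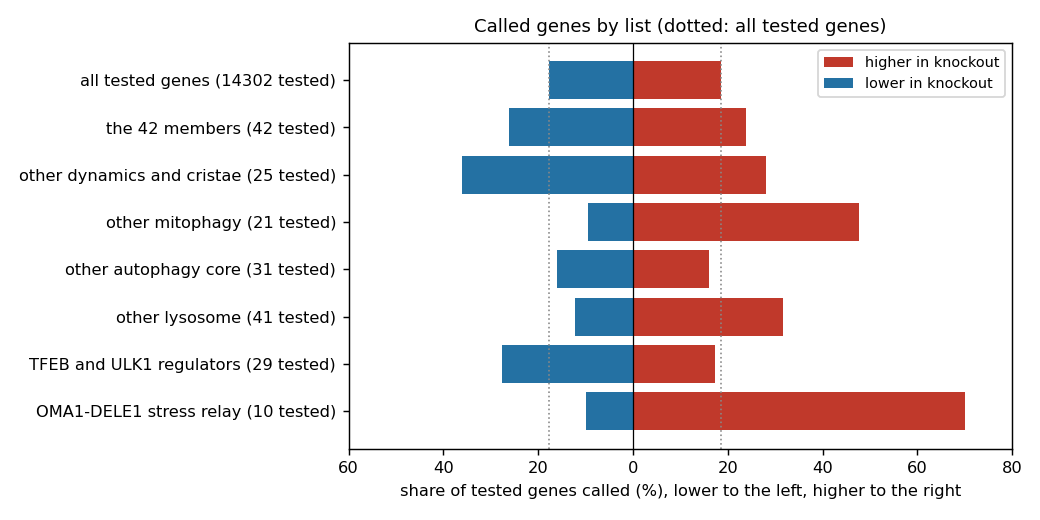
Share of tested genes called higher (red, to the right) or lower (blue, to the left) in knockouts, in %, for all 14302 tested genes, the 42 genes and the 6 further lists. Dotted lines mark the shares of all tested genes, 18.7% higher and 17.8% lower. With library size alone these shares were 56.6% and 3.86%.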

How the data were processed

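Whole hearts of 3 control and 3 knockout mice were sequenced as paired-end TruSeq libraries, per the labels' protocols. The submitters' processing notes name the mm10 build and the tools featureCounts 1.5.1, HISAT2 2.0.5, DESeq2 1.16.1 and SAMtools 1.5, without options. The authors deposited raw counts of reads per gene, 1 column per mouse, and all tests here start from these counts. The authors also deposited their own comparison, made with DESeq2 per the file header's column names, with log2 fold changes and SE, a score (the test statistic), the mean normalised signal of each gene, and p-values before and after adjustment.

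Counts were tested with edgeR 4.0.16 in R 4.3.3 (quasi-likelihood F test, TMM, filterByExpr with a minimum count of 10, no block). The SE is the size of the log2 fold change divided by the square root of F. CPM uses the TMM-scaled library size. Ratios within a library had 0.5 added to each count and were compared with two-sided exact permutation tests, as were shares of the ATG8 family. Gene positions and exon lengths are from GENCODE M21 (GRCm38, the same build as mm10), and promoter windows from RefSeq (GRCm38.p6). A blastn search for pseudogenes kept matches of 200 bases or more with an identity of 95% or more. Libraries of a group differed by at least 8.93 in chi-square per degree of freedom, more than counting noise gives, so none was merged; this does not show that they are separate mice, which rests on the labels.

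The 42 genes, the further lists and the ratios were chosen with earlier results of these data known. The text names all 42, Elac2, and from each further list the 3 called genes with the smallest adjusted p. Promoter motifs and ATG8 shares were chosen after values were seen. The alternatives changed the scaling (RLE, no TMM factor, or TMM from nuclear genes), the filter (none, or 50 counts in 3 libraries), the tool (DESeq2 1.42.0, limma-voom with limma 3.58.1, a robust edgeR fit, the authors' table), the threshold (adjusted p of 0.01) and the samples (each left out, or the replicate number as a block). Library size of nuclear genes alone was added after seeing the data.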

Additional observations from a re-analysis of the deposited data

How the results depend on the processing

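Of the 42 genes, 21 were called, 10 higher and 11 lower. RLE scaling, TMM without mitochondrial-encoded genes, limma-voom and a robust fit gave the same numbers. DESeq2 gave 9 higher and 10 lower, the authors' deposited table gave 9 and 9, and an adjusted p of 0.01 gave 12 in all, 5 higher and 7 lower. Over all tested genes that threshold left 3006, of which 1591 were higher and 1415 lower. With library size alone 25 of the 42 were higher and 1 lower, and of all genes 8645 were called, 8093 higher and 552 lower. The median of the 42 was then 0.75, against 0.68 for all tested genes. With library size of nuclear genes alone the median of the 42 was 0.18, against 0.11 for all tested genes. Under that scaling 12 of the 42 were higher and 7 lower, and the general shift in all tested genes is part of these values. Leaving out each library gave 15 to 26 called, 7 to 14 higher and 7 to 12 lower, with a median of -0.012 to 0.15. The calls of Elac2, Mtfp1, Chchd6, Becn1, Atg12, Gabarap, Gabarapl1, Sqstm1 and Ctsd held under every alternative except, for some, the stricter threshold.

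With library size alone the direction turned for Mfn2 (0.34), Oma1 (0.27), Dnm1l (0.30), Mief1 (0.64), Immt (0.37), Apool (0.23), Bnip3 (0.41), Fundc1 (0.33), Fundc2 (0.17), Wipi1 (0.38), Map1lc3a (0.11), Map1lc3b (0.36), Tfeb (0.60), Tfe3 (0.49), Prkaa2 (0.051) and Foxo3 (0.0022), as the shift of 0.68 in the median of all genes implies. Values near 0 turned elsewhere, and the cause was not tested. Mief1 was at 0.00053 without a filter and 0.072 with library size of nuclear genes alone, where Tfeb was at 0.022. Mief2 was at -0.026 with the 50-count filter, -0.0081 with limma-voom and -0.0041 with the replicate block. Leaving out each library gave -0.01 to 0.17 for Mff, -0.12 to 0.034 for Mief1, -0.080 to 0.11 for Mief2, -0.057 to 0.17 for Mtfr1, -0.0043 to 0.22 for Chchd3 and a difference of -0.059 to 0.24 in the log2 ratio of Mief2 to Mief1.

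The labels do not say that equal replicate numbers pair mice. A pairing check on log2 CPM gave correlations of -0.198, 0.085 and -0.087 for same-numbered libraries, and -0.147 to 0.174 for the other pairs. With the replicate number as a block 17 of the 42 were called, 9 higher and 8 lower. With 3 mice a group, changes of low genes such as Chchd6 and Atg7 are measured on few counts per library, and intervals cover counting error and the spread of these mice alone.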
